A study of Mus musculus with 12 samples.

Results

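The 10 genes S100a8, S100a9, Csf3r, Lcn2, Mmp8, Mmp9, Ngp, Mpo, Elane and Retnlg, all known from neutrophils and their granules, were followed through RNA-seq of GM-CSF bone marrow-derived dendritic cell (BMDC) cultures. They were chosen by symbol from among 55335 genes listed, and 8 of them were among the 14357 genes with enough counts to be tested. Elane and Retnlg were not. All cells came from C57BL/6 CreER mice of 8 to 12 weeks with intact Ctcf, so that every group, controls included, carries a Cre transgene at the Rosa26 locus. Marrow was grown with GM-CSF for 6 days, with fresh medium every 2 days, and the study's methods describe a CD11c bead selection of the floating cells.

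The 4 groups hold 3 libraries each. WT was unstimulated, and WTL received lipopolysaccharide (LPS), the Gram-negative cell wall component sensed by TLR4, at 100 ng/ml for 3 h. WT + JSH23 was given JSH-23, an inhibitor of the nuclear entry of the NF-kB subunit RelA, at 100 µM for 3 h, and WTL + JSH23 had this pre-treatment before the same LPS dose. Whether the cells without JSH-23 were given its solvent is not given in the sources used here. The study put 4-OH-tamoxifen into marrow cultures at their start to delete Ctcf where it was loxP-flanked, and its wording leaves unclear whether WT cultures had the drug too. Libraries without JSH-23 are numbered 4 to 6 and those with it 1 to 3, with no batch in the labels, so a separate preparation of the JSH-23 arm and the inhibitor itself cannot be told apart.

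Neutrophils store their antimicrobial proteins in granules that are filled in sequence as the cell matures. Primary granules, with myeloperoxidase and elastase, form in promyelocytes, and specific and gelatinase granules, with lipocalin, collagenase and gelatinase, form in later stages, while calprotectin (S100A8 with S100A9) fills the cytosol. GM-CSF cultures of marrow can hold granulocytes beside dendritic cells and macrophages, and several of these genes are also used by monocyte-derived cells or by cells answering LPS.

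Promoter bases were taken from the RefSeq table of GRCm38.p6, which held 9 of the 10 genes, with no entry for Mmp9. The 250 bases before each RefSeq start were searched on both strands for C/EBP-type letters TTNNGNAA and NF-kB-type letters GGGANNNNCC, after the families of factors that act in granulocyte maturation and in the LPS response. Shown here are S100a8 and S100a9, the calprotectin pair, both higher after LPS alone, and Mmp8 and Csf3r, which were both lower after LPS. Each run is 5′ to 3′ in the direction of the gene and leaves out bases annotated as exon in GENCODE M21, and capitals mark a match. The S100a8 run lies at chr3:90668821-90668977 on the plus strand, the S100a9 run at chr3:90695722-90695971 on the minus strand, the Mmp8 run at chr9:7558179-7558428 on the plus strand and the Csf3r run at chr4:126024409-126024549 on the plus strand, all in GRCm38.
S100a8: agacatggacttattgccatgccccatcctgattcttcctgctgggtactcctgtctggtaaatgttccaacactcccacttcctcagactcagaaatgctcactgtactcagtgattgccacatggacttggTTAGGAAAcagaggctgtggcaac
S100a9: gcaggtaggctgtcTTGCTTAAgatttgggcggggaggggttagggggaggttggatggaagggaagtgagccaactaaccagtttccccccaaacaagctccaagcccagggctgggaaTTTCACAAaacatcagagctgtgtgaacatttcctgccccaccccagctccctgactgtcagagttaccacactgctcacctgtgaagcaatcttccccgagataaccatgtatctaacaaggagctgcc
Mmp8: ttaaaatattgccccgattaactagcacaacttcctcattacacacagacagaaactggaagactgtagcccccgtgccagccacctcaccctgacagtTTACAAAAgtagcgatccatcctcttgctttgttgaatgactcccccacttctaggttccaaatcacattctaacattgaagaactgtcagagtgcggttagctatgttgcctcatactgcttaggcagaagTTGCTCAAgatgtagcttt
Csf3r: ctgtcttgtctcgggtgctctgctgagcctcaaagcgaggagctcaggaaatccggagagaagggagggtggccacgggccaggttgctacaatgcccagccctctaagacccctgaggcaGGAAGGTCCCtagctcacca
The C/EBP-type letters occurred in 6 of the 9 windows (S100a8, S100a9, Lcn2, Mmp8, Ngp and Retnlg), and in 36.8% of all 32851 promoter windows of that length. They begin 117 bases before the start in S100a8, 236 and 130 bases before it in S100a9 and 151 and 19 bases before it in Mmp8. The NF-kB-type letters occurred in 1 of the 9 windows, that of Csf3r, where they begin 129 bases before the start, and in 17.6% of all windows. No window of the 9 genes held both, against 5.38% of all windows. The counts cover all 250 bases of a window, exon bases included. The Lcn2 window opens on a base annotated as exon, so its match does not lie in an exon-free run, and the run of Mpo holds 47 bases. These are letter matches and not measured binding.

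Libraries held between 24664724 and 34837847 expected counts. Counts scaled to a common library size (CPM) by the TMM method, which sets the libraries to a common level from the bulk of their genes, are used for 1 gene across groups. Deposited TPM, which are per transcript length, are used between genes. TMM factors ran from 0.859 to 0.880 in WTL and from 0.939 to 0.956 in WTL + JSH23, against 1.08 to 1.095 in WT and 1.11 to 1.12 in WT + JSH23, so that the size of a small LPS change rests on the scaling.

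In every group the dendritic cell markers summed to more CPM than the macrophage or monocyte markers. Such a sum is led by its most abundant genes and does not by itself identify a cell type. The 10 dendritic cell markers (Itgax, Cd74, H2-Ab1, H2-Aa, Flt3, Zbtb46, Ccr7, Cd209a, Cd86 and Batf3) summed to between 15119 and 15378 CPM in WT, 17715 and 18790 in WTL, 14536 and 14915 in WT + JSH23, and 15839 and 17215 in WTL + JSH23, with at most 5 counts of Cd209a. The 10 macrophage or monocyte markers summed to 2854 to 3034 CPM in WT, 3369 to 3450 in WTL, 2289 to 2315 in WT + JSH23 and 2715 to 2848 in WTL + JSH23.

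The 8 markers of mature neutrophils (Ly6g, Cxcr1, Cxcr2, Cd177, Ltf, Camp, Cebpe and Stfa2l1) summed to only 8.0 to 9.91 CPM in WT, 8.80 to 9.44 in WTL, 7.41 to 7.90 in WT + JSH23 and 6.33 to 6.41 in WTL + JSH23. Of these, 4 (Ly6g, Cxcr1, Cxcr2 and Stfa2l1) had no more than 10 counts in any library, and Ly6g, the antigen by which mouse neutrophils are usually sorted, had 0 to 5. Markers of mast cells, B cells, T or NK cells and the erythroid line summed to under 2 CPM each, and those of eosinophils to between 19.3 and 24.3 CPM, nearly all from Ear2. In bulk RNA, fewer cells of a type and less RNA per cell cannot be told apart, and the part of residual granulocytes in the values of the 10 genes was not tested.

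In unstimulated WT, the 10 genes ranged from 164 to 0.297 TPM. Mmp8, the neutrophil collagenase, stood first at 164 ± 6.46 TPM (mean ± SD, n = 3 here and throughout), followed by Lcn2 at 96.2 ± 1.42, S100a9 at 93.8 ± 12.7 and S100a8 at 85.8 ± 0.928 TPM. The libraries of Lcn2 and S100a9 overlapped, and so did those of S100a9 and S100a8. Ngp (20.2 ± 0.998 TPM), Csf3r (16.7 ± 1.12 TPM) and Mmp9 (4.31 ± 0.268 TPM) came next, each apart from its neighbours. The primary granule genes were at the bottom, with Mpo at 1.60 ± 0.829 TPM and Elane at 0.297 ± 0.0987 TPM, beside Retnlg at 0.437 ± 0.129 TPM, whose libraries overlapped those of Elane. Among all genes tested, ordered by mean TPM in WT, Mmp8 ranked 862, Lcn2 1445, S100a9 1489, S100a8 1620 and Mpo 11287.

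**Figure D1:**
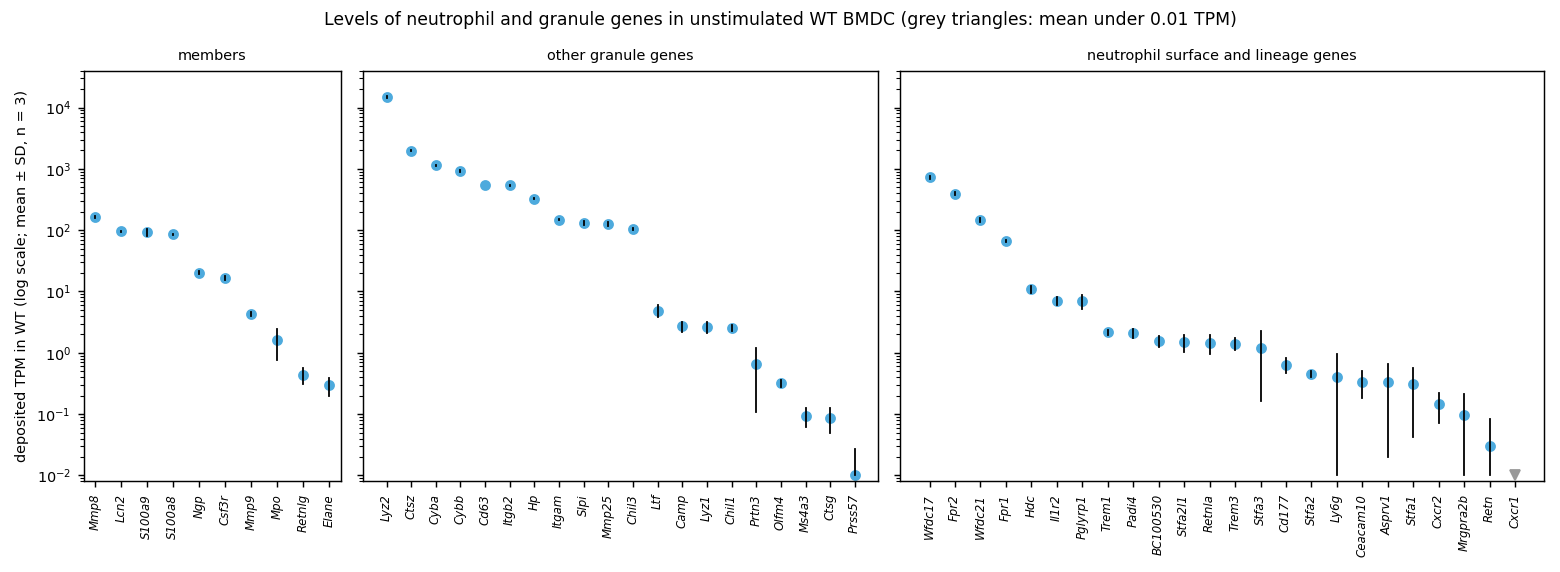
Mean deposited TPM (log scale, bars ± SD, n = 3) of the 10 genes, other granule genes and neutrophil surface and lineage genes in unstimulated WT. Mmp8, Lcn2, S100a9 and S100a8 lie between 85.8 and 164 TPM, whereas Elane, Retnlg and the neutrophil antigen Ly6g lie under 1 TPM.

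The order differed after LPS. In WTL, Lcn2 was first at 327 ± 2.32 TPM, ahead of Mmp8 (108 ± 3.46), S100a9 (101 ± 2.30) and S100a8 (91.3 ± 2.6). In WTL + JSH23, Lcn2 was again first at 173 ± 19.5 TPM, and Mmp8 (97.1 ± 7.07), S100a8 (81.6 ± 8.09) and S100a9 (76.1 ± 4.88) followed, each overlapping the next. In WT + JSH23, Mmp8 led at 131 TPM, with S100a8 at 88.2 ± 9.92, S100a9 at 83.2 and Lcn2 at 79.7 TPM. Elane and Retnlg stayed under 0.5 TPM on average in every group.

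Over the 8 genes tested, LPS without JSH-23 (WTL against WT) raised 4 (Lcn2, S100a9, S100a8 and Ngp) and lowered 2 (Csf3r and Mmp8) at an adjusted p under 0.05 in edgeR. Over all genes tested, 31.0% were higher and 34.7% lower, so that most genes moved in this comparison. Of the 8, Lcn2 alone passed 2-fold, which 16.4% of all genes did. The median log2 fold change was 0.39 over the 8 genes and -0.05 over all genes.

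With JSH-23 present (WTL + JSH23 against WT + JSH23), 1 of 8 rose (Lcn2) and 2 fell (Csf3r and Mmp8), where 27.4% of all genes were higher and 27.1% lower. Lcn2 again passed 2-fold, which 10.3% of all genes did. The median was 0.08 over the 8 genes and -0.02 over all genes.

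Under LPS, all 8 genes tested were lower with JSH-23 (WTL + JSH23 against WTL) at an adjusted p under 0.05 in edgeR. By limma on log2(TPM + 1) and on log2(TPM + 0.1) 6 of the 8 passed, without S100a8 and Mpo, and by library totals 7, without S100a8. Of all genes, 24.2% were lower and 24.5% higher. Lcn2 and Mpo passed 2-fold, which 7.00% of all genes did. The median was -0.45 over the 8 genes and 0.02 over all genes.

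Marker lists moved in this comparison as well. Of the macrophage or monocyte markers, 8 of 10 were lower with JSH-23 under LPS and 1 higher (median -0.66), as were 6 of 9 dendritic cell markers tested, with 2 higher (median -0.17), and 3 of 4 mature neutrophil markers, with 0 higher (median -0.56). Without LPS, 7 of the 10 macrophage or monocyte markers were lower and 2 higher (median -0.47), 3 of the 9 dendritic cell markers were lower and 3 higher (median -0.08), and 1 of the 4 mature neutrophil markers was lower (median -0.08). The part of these cell types in the changes of the 8 genes was not tested.

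Without LPS, 5 genes (Csf3r, Lcn2, Mmp8, Mmp9 and Mpo) were lower with JSH-23 (WT + JSH23 against WT) and none higher, where 22.1% of all genes were lower and 18.8% higher. Mpo passed 2-fold, which 5.37% of all genes did. The median was -0.29 over the 8 genes and -0.01 over all genes. These comparisons share groups, so their counts are not independent of each other.

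The interaction compares LPS changes, subtracting the one without JSH-23 from the one with it, and passed below 0 for 4 of the 8 (Lcn2, S100a9, S100a8 and Ngp) and above 0 for none. Over all genes, 8.44% passed below 0 and 9.54% above it. A difference past 2-fold was called for 1.34% of all genes and for none of the 8.

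**Figure D2:**
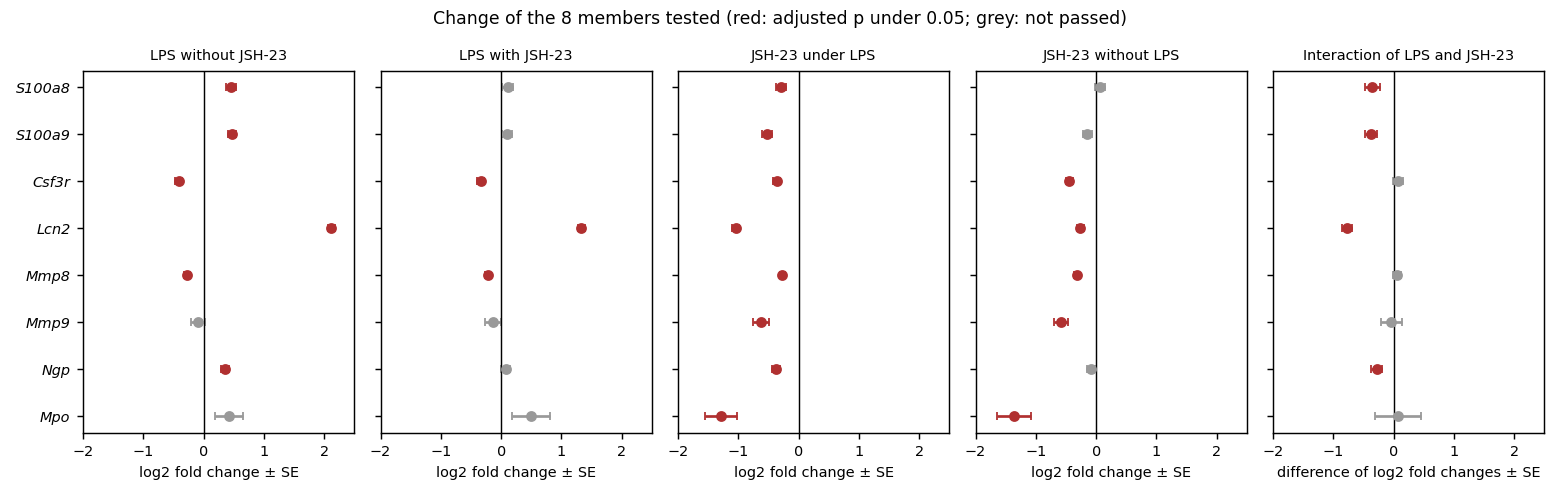
Log2 fold change ± SE of the 8 genes tested in each of the 5 comparisons (red, adjusted p under 0.05; grey, not passed). Lcn2 stands apart at 2.11 after LPS alone and 1.33 after LPS with JSH-23, and all 8 points lie below 0 for JSH-23 under LPS.

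The calprotectin genes S100a8 and S100a9 code for the subunits of a calcium- and zinc-binding heterodimer that is abundant in neutrophils and monocytes and acts as a TLR4 ligand once released. S100a8 (ENSMUSG00000056054, chr3:90668978-90670035, plus strand) and S100a9 (ENSMUSG00000056071, chr3:90692632-90695721, minus strand) lie near each other on chromosome 3. S100a8 measured 12.6, 12.9 and 12.4 CPM in WT replicates 4, 5 and 6, 18.0, 17.2 and 16.7 CPM in WTL replicates 4, 5 and 6, 14.7, 11.5 and 13.2 CPM in WT + JSH23 replicates 1, 2 and 3, and 13.6, 13 and 16.1 CPM in WTL + JSH23 replicates 1, 2 and 3. The 3 WTL libraries were above all others.

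S100a9, in the same order, measured 15.7, 13.2 and 16.9 CPM in WT, 21.5, 20.8 and 20.9 CPM in WTL, 13.9, 13.3 and 14.0 CPM in WT + JSH23, and 15.3, 14.3 and 14.3 CPM in WTL + JSH23. WTL was again above all other libraries. LPS alone raised S100a8 by 1.37-fold (log2 0.46, SE 0.0839, adjusted p = 6.27e-05) and S100a9 by 1.39-fold (log2 0.47, SE 0.0731, adjusted p = 8.39e-06).

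With JSH-23 the LPS changes of the pair did not pass, at a log2 of 0.11 for S100a8 (SE 0.0866, adjusted p = 0.321) and 0.09 for S100a9 (SE 0.0784, adjusted p = 0.328). The difference between these LPS changes passed for both, at -0.35 (SE 0.121, adjusted p = 0.0473) and -0.38 (SE 0.107, adjusted p = 0.0180). For S100a8 the call was lost in 9 of the 12 fits that left out 1 library each, with values from -0.37 to -0.26 and adjusted p from 0.067 to 0.160. It was kept without WTL replicate 6, WT + JSH23 replicate 2 or WTL + JSH23 replicate 3. For S100a9 it was kept in all 12.

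Within LPS-stimulated cells, S100a8 was lower with JSH-23 (log2 fold change -0.29, SE 0.0853, adjusted p = 0.0078), and so was S100a9 (-0.53, SE 0.0757, adjusted p = 5.77e-06). In unstimulated cells neither change passed, with 0.06 for S100a8 (adjusted p = 0.600) and -0.15 for S100a9 (adjusted p = 0.126). Without WT replicate 5, the lowest S100a9 library of its group, S100a9 passed at -0.25 (adjusted p = 0.00675).

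The ratio of S100a8 to S100a9 TPM was 0.927 ± 0.138 in WT, 0.909 ± 0.0232 in WTL, 1.06 ± 0.110 in WT + JSH23 and 1.08 ± 0.141 in WTL + JSH23, near equal abundance in each. Over the 12 libraries their log2 CPM correlated at r = 0.74. Each correlated more with Ngp, S100a8 at r = 0.85 and S100a9 at r = 0.94, and also with Lcn2, at r = 0.82 and 0.81. S100a9 correlated with Mpo at r = 0.77. The 4 groups make up part of the spread in all of these values.

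Lcn2, lipocalin 2, is a siderophore-binding protein of specific granules that many other cells also make after inflammatory signals (ENSMUSG00000026822, chr2:32384633-32388252, minus strand). Lcn2 measured 38.9, 40.6 and 38.8 CPM in WT, 171, 175 and 166 CPM in WTL, 33.9, 32.7 and 32.1 CPM in WT + JSH23, and 78.1, 93.5 and 76.8 CPM in WTL + JSH23. The 4 groups did not overlap, with both LPS groups above both unstimulated groups and, within each pair, the JSH-23 group lower.

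LPS raised Lcn2 by 4.32-fold alone (log2 2.11, SE 0.0581, adjusted p = 6.42e-18) and by 2.52-fold with JSH-23 (log2 1.33, SE 0.0608, adjusted p = 6.41e-14). The LPS change with JSH-23 was 63.0% of that without it on the log2 scale, and the difference passed (-0.78, SE 0.0838, adjusted p = 1.84e-06), also with any 1 library left out. Lcn2 was lower with JSH-23 under LPS (log2 fold change -1.04, SE 0.0554, adjusted p = 1.47e-12) and without LPS (-0.26, SE 0.0630, adjusted p = 0.00195).

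Ngp, neutrophilic granule protein, is a cathelicidin-related protein of specific granules (ENSMUSG00000032484, chr9:110419747-110423012, plus strand). Its levels were 12.2, 11.6 and 12.7 CPM in WT, 15.4, 15.6 and 15.7 CPM in WTL, 12, 11.3 and 10.9 CPM in WT + JSH23, and 11.6, 11.7 and 12.9 CPM in WTL + JSH23. As for calprotectin, the WTL libraries were above all others.

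LPS alone raised Ngp by 1.28-fold (log2 0.36, SE 0.0668, adjusted p = 7.16e-05), and with JSH-23 the change of 0.08 (SE 0.0705) did not pass (adjusted p = 0.388). The difference was -0.29 (SE 0.0971, adjusted p = 0.0464). This call was lost in 9 of the 12 fits with 1 library left out, at adjusted p from 0.0613 to 0.126, and kept without WT replicate 6, WT + JSH23 replicate 3 or WTL + JSH23 replicate 3. Ngp was lower with JSH-23 under LPS (-0.37, SE 0.0690, adjusted p = 0.000122), and its change without LPS was -0.09 (adjusted p = 0.341).

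Mmp8, the collagenase of specific granules, had the highest TPM of the 10 genes in both unstimulated groups (ENSMUSG00000005800, chr9:7558456-7568485, plus strand). It measured 215, 233 and 215 CPM in WT, 186, 179 and 182 CPM in WTL, 182, 173 and 176 CPM in WT + JSH23, and 159, 153 and 141 CPM in WTL + JSH23. WT was highest and WTL + JSH23 lowest, and WTL and WT + JSH23 overlapped between them.

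Each agent went with less Mmp8. The log2 fold changes were -0.28 for LPS (SE 0.0445, adjusted p = 1.13e-05), -0.32 for JSH-23 (SE 0.0443, adjusted p = 3.57e-06), -0.23 for LPS with JSH-23 (SE 0.0451, adjusted p = 0.000221) and -0.27 for JSH-23 under LPS (SE 0.0453, adjusted p = 3.62e-05). The difference of LPS changes was 0.05 (SE 0.0633) and did not pass (adjusted p = 0.629).

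Mmp9, gelatinase B of the gelatinase granules, is also made by macrophages and dendritic cells (ENSMUSG00000017737, chr2:164940780-164955850, plus strand). It measured 7.0, 6.57 and 8.14 CPM in WT, 6.78, 6.10 and 7.41 CPM in WTL, 5.16, 4.88 and 4.32 CPM in WT + JSH23, and 3.79, 4.18 and 5.19 CPM in WTL + JSH23. The JSH-23 libraries were all below those without it, and WT overlapped WTL.

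The LPS changes of Mmp9 did not pass, at -0.10 without JSH-23 (SE 0.116, adjusted p = 0.455) and -0.14 with it (SE 0.132, adjusted p = 0.394). By library totals and by both limma fits on TPM they passed below 0, at -0.43 (adjusted p = 0.00233) and, with JSH-23, -0.38 (adjusted p = 0.0168) by totals. Mmp9 was lower with JSH-23 both without LPS (log2 fold change -0.59, SE 0.119, adjusted p = 0.000365) and under LPS (-0.63, SE 0.128, adjusted p = 0.000349), the second at -0.34 (adjusted p = 0.0395) by limma on log2(TPM + 1). The counts behind these values ran from 105 to 236.

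Csf3r codes for the receptor of G-CSF, the cytokine that drives granulocyte production (ENSMUSG00000028859, chr4:126024550-126044440, plus strand). Csf3r measured 31.0, 30.1 and 28.1 CPM in WT, 22.7, 22.3 and 21.8 CPM in WTL, 21.6, 22.4 and 21.7 CPM in WT + JSH23, and 17.1, 18.8 and 15.9 CPM in WTL + JSH23. WT was highest, WTL and WT + JSH23 overlapped, and WTL + JSH23 was lowest, the order that Mmp8 also had.

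LPS lowered Csf3r to 0.749 of its WT level (log2 -0.42, SE 0.0587, adjusted p = 2.37e-06) and, with JSH-23, to 0.789 of the WT + JSH23 level (log2 -0.34, SE 0.0633, adjusted p = 0.000105). It was lower with JSH-23 without LPS (-0.44, SE 0.0578, adjusted p = 1.91e-06) and under LPS (-0.37, SE 0.0642, adjusted p = 6.11e-05). The difference of LPS changes did not pass (0.08, SE 0.0865, adjusted p = 0.611).

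Mpo, myeloperoxidase, and Elane, neutrophil elastase, are products of primary granules. Mpo (ENSMUSG00000009350, chr11:87793581-87804413, plus strand) had 10 to 55 counts a library. It measured 0.917, 1.25 and 1.59 CPM in WT, 1.59, 1.83 and 1.57 CPM in WTL, 0.492, 0.615 and 0.340 CPM in WT + JSH23, and 0.744, 0.676 and 0.605 CPM in WTL + JSH23. All 6 JSH-23 libraries were below all 6 without it.

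With JSH-23, Mpo stood at 0.388 of its level in unstimulated cells (log2 -1.37, SE 0.275, adjusted p = 0.000364) and at 0.408 of its level under LPS (log2 -1.29, SE 0.263, adjusted p = 0.000324). The change under LPS did not pass by limma, at -0.40 on log2(TPM + 1) (adjusted p = 0.107) and -0.73 on log2(TPM + 0.1) (adjusted p = 0.117), whereas the one without LPS passed at -0.81 (adjusted p = 0.00585) on log2(TPM + 1). The LPS changes did not pass, at 0.42 (SE 0.231, adjusted p = 0.115) and, with JSH-23, 0.49 (SE 0.314, adjusted p = 0.194). Without WT replicate 6, the LPS change of 0.62 passed (adjusted p = 0.0432).

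Mpo overlaps Gm11505 on the other strand, and the effective length behind its TPM ran from 783 to 2387 bases across libraries. Its TPM do not follow its CPM, with a WTL to WT ratio of 0.861 in TPM and 1.34 by counts with TMM. TPM also carry no TMM scaling, and by counts with library totals the log2 change was 0.09.

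Elane (ENSMUSG00000020125, chr10:79886247-79888215, plus strand) had 6, 4 and 3 counts in WT, 3, 6 and 5 in WTL, 2, 2 and 2 in WT + JSH23, and 2, 2 and 4 in WTL + JSH23. Retnlg, a resistin-like secreted protein of mature neutrophils (ENSMUSG00000022651, chr16:48872621-48874496, plus strand), had 4, 3 and 2 counts in WT, 2, 3 and 2 in WTL, 3, 2 and 3 in WT + JSH23, and 0, 5 and 4 in WTL + JSH23. Differences between groups were not detectable at this depth in either gene. The 0 counts of Retnlg in WTL + JSH23 replicate 1 allow up to 3 counts, or 0.106 CPM, from counting error alone.

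**Figure D3:**
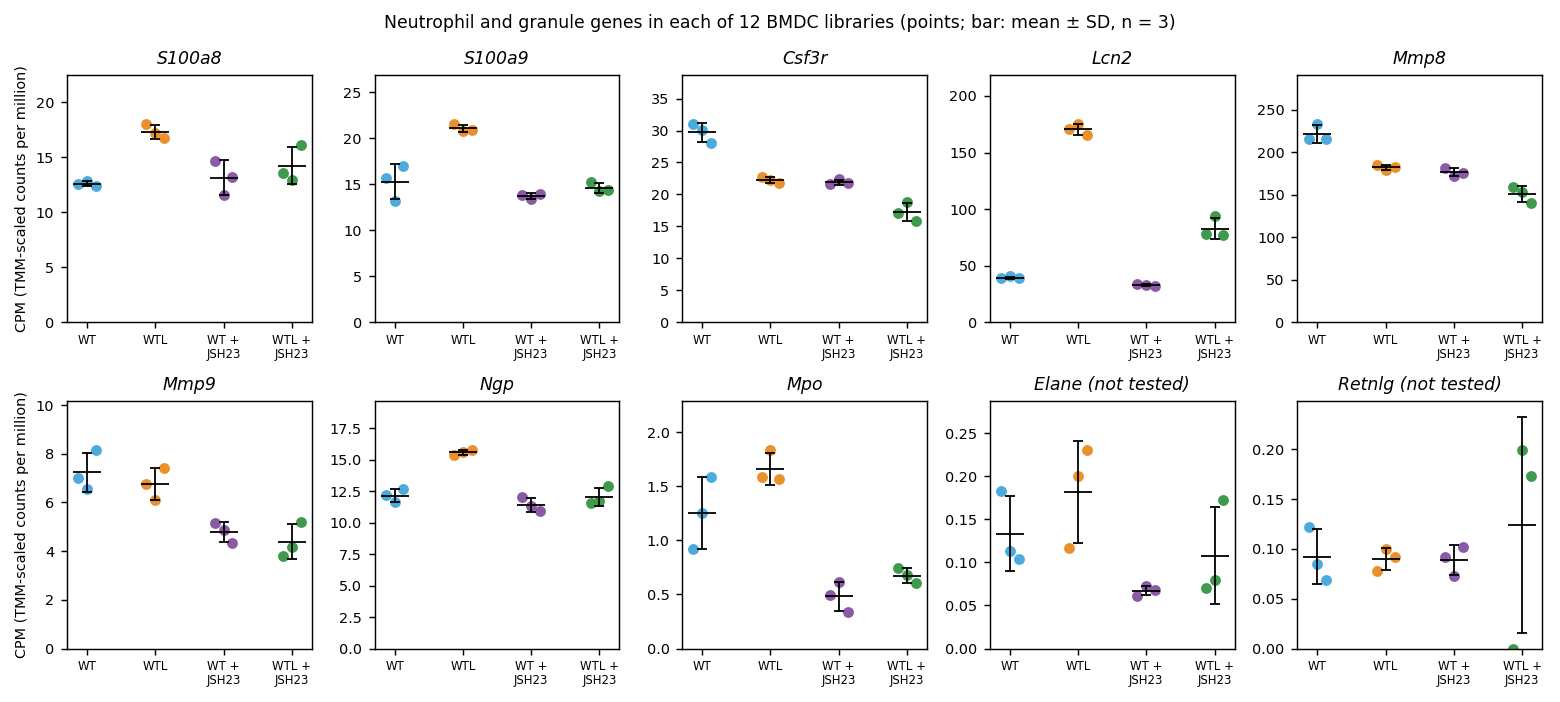
CPM of each of the 10 genes in the 12 libraries (points), with mean ± SD (n = 3) per group and an axis from 0 for each gene. S100a8, S100a9 and Ngp are highest in WTL, Lcn2 is high in both LPS groups, Csf3r and Mmp8 are highest in WT and lowest in WTL + JSH23, and Mmp9 and Mpo are low in both JSH-23 groups.

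By these tests the genes had 3 patterns. Lcn2, S100a8, S100a9 and Ngp rose with LPS alone and had a smaller LPS change with JSH-23, at 63.0% of the log2 change for Lcn2. For S100a8, S100a9 and Ngp the changes with JSH-23 did not pass. With 1 library left out they ran from 0.011 to 0.20 for S100a8, 0.056 to 0.11 for S100a9 and 0.028 to 0.12 for Ngp, and by library totals they were -0.13, -0.14 and -0.16, so that their share of the LPS change without JSH-23 has no fixed size or sign. Csf3r and Mmp8 were lower with either agent. Their LPS changes with JSH-23 were 81.9% and 81.1% of the log2 changes without it, and this difference did not pass in either gene. In Mmp9 and Mpo the JSH-23 changes alone passed.

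The LPS changes of S100a8, S100a9 and Ngp depended on how libraries were set to a common level. With library totals in place of TMM, a choice added after seeing the factors, the median gene moved by -0.38 on the log2 scale after LPS alone, against -0.05 with TMM. S100a8 then changed by 0.13 (adjusted p = 0.167), S100a9 by 0.14 (adjusted p = 0.101) and Ngp by 0.03 (adjusted p = 0.703), none of which passed. A change of scaling shifts all genes by nearly the same amount. Measured from the median gene, the changes are therefore the same under both scalings by construction, which is no test of them. They were 0.50 for S100a8, 0.52 for S100a9, 0.41 for Ngp, 2.16 for Lcn2, -0.37 for Csf3r and -0.23 for Mmp8.

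By library totals, 1 gene rose (Lcn2, 1.78) and 3 fell (Csf3r at -0.75, Mmp8 at -0.61 and Mmp9 at -0.43) after LPS alone. Of all calls in that comparison 47.2% were higher with TMM and 19.7% with library totals. With JSH-23 these shares were 50.3% and 20.9%, and by totals Ngp was lower after LPS (-0.16, adjusted p = 0.0491), the reverse of its TMM value, while the median gene moved by -0.26 against -0.02. For JSH-23 under LPS the shares were 50.3% and 70.9%, and by totals S100a8 did not pass (-0.16, adjusted p = 0.114).

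For the interaction the shares were 53.1% and 79.3%. By totals Lcn2 passed (-0.69), whereas S100a8 (-0.26, adjusted p = 0.125), S100a9 (-0.28, adjusted p = 0.0729) and Ngp (-0.19, adjusted p = 0.175) did not. The deposited TPM give the WTL to WT ratio as 1.06 for S100a8, 1.07 for S100a9, 1.01 for Ngp and 3.40 for Lcn2.

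**Figure D4:**
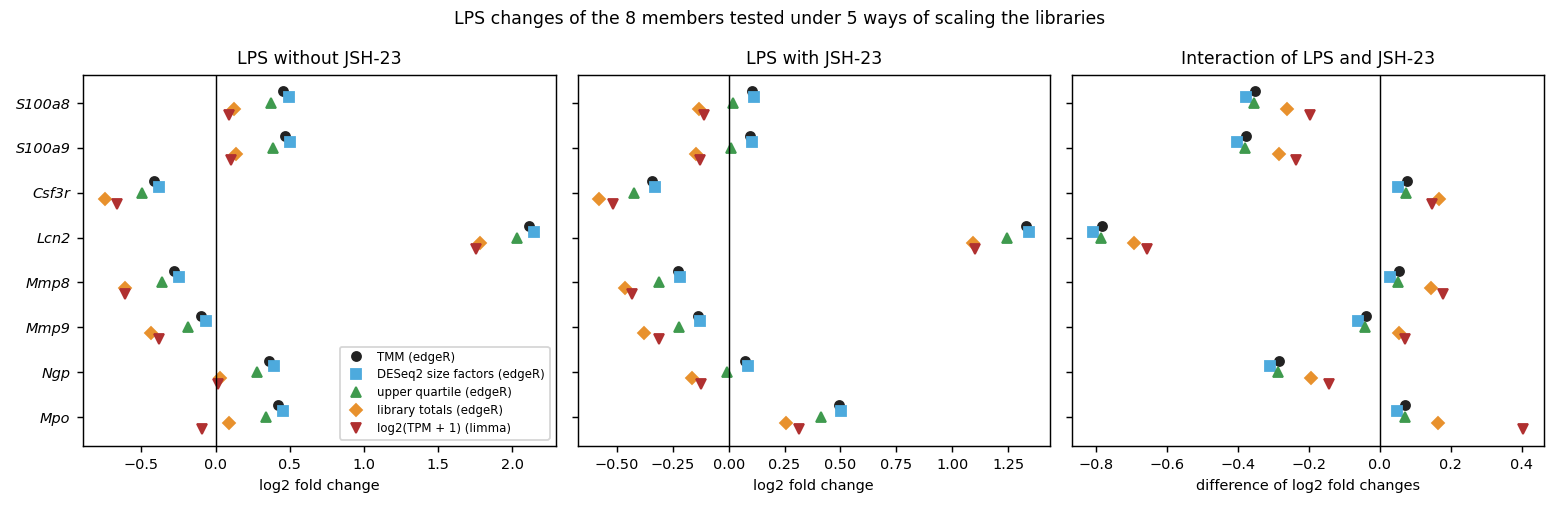
Log2 fold change of the 8 genes after LPS without and with JSH-23, and the difference of these changes, under 5 ways of scaling the libraries. Lcn2 stays far above 0 after LPS throughout, while S100a8, S100a9 and Ngp lie near 0 after LPS alone by library totals and by TPM.

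Among 20 other granule genes, 17 were tested. The promyelocyte genes Ctsg, Ms4a3 and Prss57 had at most 3 counts in any library, whereas genes that macrophages share were abundant in WT. Lysozyme (Lyz2) stood at 14941 ± 388 TPM, cathepsin Z (Ctsz) at 1973 ± 24.5, the NADPH oxidase subunits Cyba and Cybb at 1150 ± 21.5 and 914 ± 34.5, the tetraspanin Cd63 at 550 ± 1.61 and the integrin chains Itgb2 and Itgam at 539 ± 8.43 and 149 ± 3.29 TPM. Haptoglobin (Hp, 328 ± 10.7 TPM) was above Mmp8 (164 TPM). The protease inhibitor Slpi (133 ± 9.88 TPM), Mmp25 (127 ± 9.24 TPM) and Chil3 (106 ± 3.64 TPM) were below it, and lactoferrin (Ltf, 4.86 ± 1.07 TPM) was far below.

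The counts in this and the other gene lists stand against those over all genes tested. There, 31.0% were higher and 34.7% lower after LPS alone (median -0.05), 27.4% and 27.1% after LPS with JSH-23 (median -0.02), 24.5% and 24.2% with JSH-23 under LPS (median 0.02), 18.8% and 22.1% with JSH-23 without LPS (median -0.01) and 9.54% and 8.44% in the interaction.

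After LPS alone, 9 of these 17 granule genes rose and 2 fell, with a median of 0.16 (by library totals 3 rose and 9 fell, with a median of -0.17). Chil1 (log2 1.43, SE 0.146, adjusted p = 2.15e-08), the cathelicidin Camp (log2 0.95, SE 0.228, adjusted p = 0.00101), Slpi (log2 0.77, SE 0.09, adjusted p = 1.74e-07) and Cybb (log2 0.39, SE 0.0359, adjusted p = 4.74e-09) had the largest changes. With JSH-23, 6 rose and 2 fell after LPS (median 0.11, and by library totals 3 and 7), led by Slpi at 0.99, Chil1 at 0.61, Cybb at 0.53 and Mmp25 at 0.24.

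The JSH-23 comparisons split the granule genes. Under LPS 4 were higher and 7 lower (median -0.07, by totals 6 and 3), and without LPS 4 were higher and 4 lower (median -0.03). Slpi was higher with JSH-23 in both (1.73 and 1.51), and Hp lower in both (-1.35 and -1.37). Under LPS, Chil1 (-0.79) and Camp (-0.67) were also lower, and without LPS Cd63 was higher (0.37) and Lyz2 lower (-0.31). The interaction passed for 1 of 17, Chil1 (log2 -0.82, SE 0.216, adjusted p = 0.0114).

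Of 25 neutrophil surface and lineage genes, 15 were tested. Wfdc17 (731 ± 39.2 TPM), the formyl peptide receptors Fpr2 (396 ± 15.4 TPM) and Fpr1 (66.6 ± 1.47 TPM) and Wfdc21 (146 ± 10.3 TPM) were the abundant ones in WT. After LPS alone 8 rose and 2 fell, with a median of 0.32, and by library totals 7 and 2. Trem1, an activating receptor of neutrophils and monocytes, rose most (log2 3.88, SE 0.0722, adjusted p = 1.00e-20), from 2.16 ± 0.229 TPM in WT to 25.5 ± 1.44 TPM in WTL. Trem3 (2.05), Fpr1 (1.95) and histidine decarboxylase (Hdc, 1.30) followed.

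With JSH-23, 6 of these 15 rose after LPS and 1 fell (by library totals 5 and 4), with Trem1 at 3.01, Fpr1 at 2.00, Fpr2 at 1.01 and the decoy receptor Il1r2 at 0.97. Under LPS 1 was higher with JSH-23 and 9 lower (median -0.59), and without LPS 1 was higher and 6 lower (median -0.30). Trem1 (-1.53), Trem3 (-1.44), Wfdc21 (-1.37) and BC100530 (-1.17) had the largest of these changes under LPS. Without LPS, Hdc (-0.82) and Trem1 (-0.66) were lower and Il1r2 higher (0.96). The interaction passed below 0 for 4 of the 15, Trem3 (-1.26), Wfdc21 (-0.96), Trem1 (-0.87) and Wfdc17 (-0.28), and above 0 for none.

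All 10 transcription factors of granulopoiesis were tested. After LPS alone 6 rose and 3 fell (median 0.19), and by library totals 4 and 6. Gfi1, a repressor that acts in granulocyte maturation, rose from 2.63 ± 0.572 to 72.3 ± 3.08 TPM (log2 5.17, SE 0.128, adjusted p = 1.19e-18), and Nfkbiz, a nuclear regulator of late NF-kB targets such as Lcn2, from 13.6 ± 0.646 to 317 ± 8.54 TPM (log2 4.98, SE 0.0497, adjusted p = 1.11e-24). Cebpd rose (2.00) while Cebpa fell (-1.85).

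With JSH-23 the LPS changes of Gfi1 (5.22) and Nfkbiz (4.97) passed as well, as did those of Klf5 (1.86) and Cebpd (1.52), among 4 that rose and 3 that fell. Under LPS 2 factors were higher with JSH-23 and 7 lower (median -0.75). Gfi1 (-1.73), Cebpe (-1.26) and Cebpd (-1.19) were lower and Cebpa higher (0.98). Without LPS 2 were higher and 6 lower (median -0.53), led by Gfi1 (-1.78), Runx1 (-1.26), Cebpe (-1.05), the factor of specific granule genes, and Nfkbiz (-0.91).

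The interaction passed above 0 for Cebpa (0.63) and Runx1 (0.47) and below 0 for Cebpd (-0.48) and Spi1 (-0.36). Cebpb (261 ± 11.7 TPM), Spi1 (419 ± 13.7 TPM) and Stat3 (152 ± 3.9 TPM) were the abundant factors in WT. Because Gfi1 makes up most of it, the sum of 9 granulocyte progenitor markers rose from between 11.3 and 12.9 CPM in WT to about 137 CPM in WTL, while Elane, Ctsg, Ms4a3 and Prss57 in the same list had at most 10 counts in any library.

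Of 14 ligands, receptors and inhibitors of the 10 gene products, 10 were tested. Csf3, which codes for G-CSF, the ligand of the Csf3r product, had 0 to 2 counts a library in WT and 64 to 125 in WTL, and with JSH-23 0 to 2 and 34 to 48. After LPS alone 5 of the 10 rose and 5 fell (by totals 3 and 5). The metalloproteinase inhibitors Timp3 (1.99) and Timp1 (1.40) rose and Tlr4, a receptor of calprotectin, fell (-1.38). With JSH-23, 3 rose after LPS and 4 fell, with Timp3 at 1.32, Timp1 at 0.91 and Ager, another calprotectin receptor, at -1.26.

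Under LPS 2 of these 10 were higher with JSH-23 and 4 lower. Csf3 (-1.17), Timp3 (-0.85) and Serpina3g (-0.76) were lower and Tlr4 higher (0.82). Without LPS 2 were higher, Cd36 (0.67) and Timp1 (0.56), and 2 lower, Serpina3g (-0.57) and Tlr4 (-0.17). The interaction passed above 0 for Tlr4 (0.99) and below 0 for Timp3 (-0.66), Timp1 (-0.49) and Serpinb1a (-0.42), an inhibitor of neutrophil elastase.

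Other S100 and MMP family genes set the levels of the members in context. Of 17 listed, 11 were tested. In WT, S100a11 (2283 ± 41.6 TPM), S100a4 (1721 ± 31.5 TPM), S100a10 (470 ± 15.3 TPM), S100a6 (281 ± 9.45 TPM) and S100a1 (182 ± 7.35 TPM) were above S100a8 and S100a9, and S100a13 (58.5 ± 4.28 TPM) below. Mmp12 (1772 ± 91.9 TPM) and Mmp14 (457 ± 9.15 TPM) were above Mmp8, with Mmp13 at 72.9 ± 4.67 TPM.

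After LPS alone 7 of these 11 rose and 1 fell, whereas by library totals 2 rose and 7 fell. Mmp13 (1.92) and Mmp14 (0.71) rose, Mmp2 rose by less (0.33) and Mmp19 fell (-0.86). With JSH-23, 3 rose after LPS and 3 fell (by totals 2 and 8), with Mmp13 at 1.24, Mmp14 at 0.64, Mmp19 at -0.95 and S100a6 at -0.21. Library totals shift all genes by nearly the same amount after LPS alone (the median gene from -0.05 to -0.38), so that rises smaller than this shift, such as those of S100a10, S100a11, S100a1 and Mmp12, lie below 0 there by construction.

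Under LPS 3 of the 11 were higher with JSH-23 and 7 lower, and without LPS 3 were higher and 3 lower. Mmp19 (1.75 and 1.84) and Mmp12 (1.02 and 1.20) were higher in both, unlike Mmp8 and Mmp9, and Mmp2 was lower in both (-1.03 and -0.78). Mmp14 was lower under LPS (-0.55) and Mmp13 higher without it (0.92). The interaction passed below 0 for 6 of the 11 and above 0 for none (8.44% and 9.54% of all genes), led by Mmp13 (-0.67), S100a13 (-0.32), S100a6 (-0.26) and S100a10 (-0.26), and by library totals for 1 of them.

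The genes whose log2 CPM ran most like each member over the 12 libraries were named among those with a mean of at least 10 CPM in their highest group. For Lcn2 they were Dusp2, Ufm1 and Surf4 (r = 0.997 each). For S100a9 they were Tmem127 (r = 0.98), Rbmxl1 and Dnajb11 (r = 0.96 each), for S100a8 Cox7c, Tuba1c (r = 0.94 each) and Myl6 (r = 0.93), and for Ngp Zbtb7a, Spint2 (r = 0.97 each) and Dbi (r = 0.96). For Csf3r they were Dpy19l1, Galnt7 and Ly6a (r = 0.99 each), and for Mmp8 Coa5, Kat2b (r = 0.99 each) and Ccr2 (r = 0.98). For Mmp9 they were Churc1 (r = 0.94), Sin3a and Smarca4 (r = 0.93 each), and for Mpo Dock8 (r = 0.97), Fn1 and Alpk1 (r = 0.96 each). The 12 points are 4 groups of 3 libraries, so these values mostly describe a shared order of groups.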

How the data were processed

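Per the study's methods and labels, 100-base paired-end reads were made on a HiSeq2500, from 3 biological replicates a condition. The labels do not tie libraries to separate mice, so p-values measure the spread between these samples. Labels and methods name different library kits (rRNA depletion or poly(A) selection), which was not settled here. The authors trimmed with Trim Galore, aligned to mm10 with STAR (2.6.0c in their processing notes) and quantified with RSEM over a GENCODE release not given in the sources used here. The deposited expected counts are per gene, with reads shared by several genes divided by RSEM, and the deposited TPM were scaled by the authors for length and depth. Both are unfiltered. No column went unmatched to a sample (0).

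Symbols and positions came from GENCODE M21 (GRCm38), which 55154 of 55335 gene IDs matched without version. Expected counts were rounded. A quasi-likelihood F-test of edgeR 4.0.16 (R 4.3.3) with TMM scaling was fitted to the 14357 genes left by filterByExpr, over all 12 libraries with 8 residual degrees of freedom, with Benjamini-Hochberg adjustment over all genes tested. A gene was called at an adjusted p under 0.05. SE is that of the log2 fold change. Alternatives were other scalings, DESeq2 1.42.0, limma 3.58.1 on log2(TPM + 1) and log2(TPM + 0.1), other filters, a 2-fold threshold, the groups compared alone, each library left out and the replicate number as a block. No 2 libraries held identical values.

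The 10 genes and the gene lists were chosen with earlier results of these data known. Named from each list were up to 4 called genes with the largest change per comparison and any gene at 50 TPM or more in WT, besides genes at a few counts or at a level named for context (Ltf and those near 0), which were chosen after their values were seen. A gene of one list that this rule names is not reported here. For each of the 8 genes, the 3 genes of highest Pearson correlation were named, with no p. Gene positions and promoter bases are both on GRCm38.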

Additional observations from a re-analysis of the deposited data

Results flagged for a closer look

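By the edgeR interaction test with TMM, the LPS change differed with and without JSH-23 in 4 of the 8 genes tested. Each of the 4 had a smaller LPS change by TMM when JSH-23 was present. With JSH-23 the LPS change itself passed for Lcn2 but not for S100a8, S100a9 or Ngp, which lay below 0 by library totals. In the interaction, 8.44% of all genes passed below 0 and 9.54% above it. By library totals and by both limma fits on TPM, Lcn2 alone passed. For S100a8 and for Ngp the call was lost in 9 of the 12 fits with 1 library left out. The difference of log2 changes was -0.78 for Lcn2 (adjusted p = 1.84e-06), -0.38 for S100a9 (adjusted p = 0.0180), -0.35 for S100a8 (adjusted p = 0.0473) and -0.29 for Ngp (adjusted p = 0.0464). With 3 libraries a group, no test of single outlying values was run, and the effect of leaving out each library is given with the results.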

How the results depend on the processing

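Over all alternatives, 851 changes of single genes were recomputed. Of these, 798 stayed on the same side of the threshold, 44 no longer passed, 8 newly passed and 1 passed in the reverse direction. That last was the LPS change of Ngp with JSH-23, at -0.16 by library totals. The 798 include changes of sign where neither fit passed. Such were S100a8 and S100a9 after LPS with JSH-23, at -0.13 and -0.14 by library totals. With a 2-fold threshold LPS alone called 1 gene and LPS after JSH-23 called 1, while the JSH-23 comparisons called 2 in stimulated and 1 in unstimulated cells and the interaction 0. In the same order, 16.4%, 10.3%, 7.00%, 5.37% and 1.34% of all genes passed it. By library totals LPS with JSH-23 called 5 genes (Mmp9 and Ngp were added), against 3 with TMM, and the interaction called 1, against 4, since scaling moved the median gene. The interaction also called 1 (Lcn2) by limma on log2(TPM + 1) and 1 on log2(TPM + 0.1), and between 2 and 4 with 1 library left out, where S100a8 and Ngp were lost. By DESeq2 it called 3 and without a filter on low counts 3. Over all genes, the interaction passed above 0 for 1000 and below 0 for 1436 of 14357 by DESeq2. Without the filter these counts were 1411 and 1151 of 26118. A mean of at least 1 CPM left out Mpo. The cause was not tested beyond these constructions.

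Over all genes, the share of calls that were higher was 19.7% by limma on log2(TPM + 1) after LPS alone, 24.9% after LPS with JSH-23 (37.7% by upper quartile scaling), 68.3% for JSH-23 under LPS and 79.5% for the interaction (41.1% by DESeq2).

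With the replicate number as a block, the LPS comparisons called 6 genes without and 3 with JSH-23, and the interaction 3, where Ngp was lost. Of all 14357 genes, that fit called 4519 higher and 5020 lower after LPS alone and 4021 and 3939 after LPS with JSH-23. For the interaction it called 1559 above 0 and 1409 below. Deviations of same-numbered libraries correlated at 0.014 to 0.061, all above 0 but under 0.1. Those of differently numbered libraries ran from -0.056 to 0.035. Without JSH-23, each library correlated most with its own number (0.021, 0.056 and 0.061). With it, WT + JSH23 replicate 1 correlated more with WTL + JSH23 replicate 2 (0.035) than with its own number (0.014). A weak pairing by number is therefore possible, and the main fit did not use it. Across the arms with and without JSH-23 no number is shared. The groups compared alone give no interaction, which needs all 4 groups. Depth limits Elane, Retnlg and Mpo.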
